A study of Mus musculus with 6 samples.

Results

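Acvrl1 and Acvr1b encode the TGF-beta family type I receptors ALK1 and ALK4. They were chosen by gene name from the authors' deposited table and are 2 of its 99 genes. Both lie side by side on mouse chromosome 15. RNA had been sequenced from B16F10 cells, a mouse melanoma line with the genotype given as WT, grown in RPMI medium with fetal bovine serum. The control group held 3 libraries of cells with no treatment. The other group held 3 libraries of cells given MTyr-OANPs for 48 h, a submitters' code that is not expanded here. The labels give no vehicle or empty-carrier group, so handling and treatment cannot be told apart. The 3 libraries of a group are described by the submitters as biological replicates, with no word on whether they came from separate cultures, so the spread behind each p-value may in part be technical.

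In TGF-beta family signalling, a secreted ligand brings together type II and type I receptors, both of which are transmembrane serine/threonine kinases. The type II receptor phosphorylates a glycine- and serine-rich stretch of the type I receptor, the GS domain, and the type I receptor then phosphorylates SMAD transcription factors. ALK1 is best known in endothelial cells, where it binds BMP9 and BMP10 and acts on the BMP-type SMADs (SMAD1, SMAD5 and SMAD9). ALK4 is a type I receptor for activins and nodal and acts on the activin-type SMADs (SMAD2 and SMAD3). A short loop of the kinase domain, the L45 loop, is known to set which SMADs a type I receptor recognises.

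The coding sequence of both features is shown because it is where the receptors' shared mechanism and their separate SMAD output are written. The sequences were read from the GENCODE M21 transcripts of Acvrl1 (ENSMUST00000000542) and Acvr1b (ENSMUST00000000544), both on the plus strand of chromosome 15 (GRCm38). Each is 60 coding bases, 5′ to 3′. Capitals mark the codons of the glycine-serine motif of the GS domain in the first pair and the codons of the L45 loop in the second pair.
Acvrl1 GS domain: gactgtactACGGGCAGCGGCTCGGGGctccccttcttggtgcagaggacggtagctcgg
Acvr1b GS domain: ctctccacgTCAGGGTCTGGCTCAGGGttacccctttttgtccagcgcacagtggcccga
Acvrl1 L45 loop: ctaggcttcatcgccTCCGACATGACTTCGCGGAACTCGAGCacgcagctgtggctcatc
Acvr1b L45 loop: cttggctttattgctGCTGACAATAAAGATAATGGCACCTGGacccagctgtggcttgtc

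The coding sequences were 1509 bases long in Acvrl1 and 1518 in Acvr1b. Aligned codon by codon, they were identical at 60.6% of 951 bases from the glycine-serine motif to the end and at 42.1% of 501 bases before it, the part that holds the ligand-binding domain. In the L45 windows, 9 of the 27 capital bases were identical, against 26 of the 33 bases around them. The codons of the glycine-serine motif matched at 11 of 18 bases and in 5 of 6 encoded residues. The opening codon of this stretch in Acvrl1, ACG, encodes threonine. The Acvrl1 GS window lies within exon 6 of 11, at chr15:101136143-101136202, and its L45 window runs from exon 7 into exon 8. The Acvr1b GS window runs from exon 3 into exon 4 of 9, and its L45 window from exon 4 into exon 5.

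Acvrl1 (ENSMUSG00000000530) spans chr15:101128522-101145336 and Acvr1b (ENSMUSG00000000532) spans chr15:101174067-101213684, both on the plus strand (GRCm38). They are 28730 bases apart, and GENCODE M21 places 0 genes between them. The longest exact run shared by the Acvrl1 and Acvr1b transcripts named above was 15 bases. Other Acvrl1 transcripts were not compared in this way. No stretch of 50 bases of Acvr1b occurred in transcripts of another gene. In Acvrl1, such stretches occurred in the antisense RNA Gm16031, which shares 127 exonic bases with it. Whether reads were counted by strand is not stated in the labels or headers, and reads of that stretch could be from either gene. The microRNA gene Mir6962 lies in an intron of Acvr1b.

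Levels are given in FPKM, fragments per kilobase of gene scaled to library depth, which allows the genes to be compared per length. For Acvrl1, which has 11 annotated transcripts, the ratio of count to FPKM implied a length of 4273 bases, close to the 4265 bases of all its exons merged. Its longest annotated transcript has 3640 bases, and a shorter length would raise its FPKM and its ratio to Acvr1b. For Acvr1b, with 1 transcript of 4418 bases, it implied 4419 bases, though this gene was among the 7 that set the scale. Relative library depth ran from 0.85 to 1.07 of the mean, and the table's total counts ran from 334160 to 421423. The library sizes implied by FPKM, on the scale set by those 7 genes, were far larger than these totals. The 99 genes thus held only a small part of each library. Ranks, medians and percentages given here refer to genes of this table and not to the whole transcriptome. Of the 99 genes, 53 had a mean of at least 1 FPKM and were tested, both receptors among them.

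Acvrl1 fell in cells given MTyr-OANPs. Its FPKM was 9.93, 10.1 and 10.0 in untreated libraries 1, 2 and 3, from counts of 3533, 3323 and 3395. It was 2.74, 3.21 and 4.64 in treated libraries 1, 2 and 3, from counts of 792, 1165 and 1690. The groups did not overlap, and the lowest untreated library stood 2.14-fold above the highest treated one. The mean went from 10.0 ± 0.0848 to 3.53 ± 0.991 FPKM (SD, n = 3 each), a 2.83-fold fall. In edgeR's quasi-likelihood test across all 53 genes, the log2 change was -1.50 (Benjamini-Hochberg adjusted p = 3.3e-11). The difference of mean log2 FPKM was -1.54 (SE 0.23), with a 95% interval of -1.96 to -1.12 from limma. Both the edgeR and the limma fit draw on the spread of all tested genes. Relative to its mean, Acvrl1 varied most of the 53 among the treated libraries. The exact permutation test on the log2 FPKM of Acvrl1 alone gave p = 0.1, the smallest that 3 against 3 libraries can give. In bulk RNA, fewer cells that express a gene and less RNA per cell cannot be told apart.

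Acvr1b did not pass the test. Its FPKM was 5.41, 5.03 and 5.11 in untreated libraries 1, 2 and 3, from counts of 1992, 1711 and 1793. It was 5.38, 5.50 and 4.70 in treated libraries 1, 2 and 3, from counts of 1604, 2065 and 1770. The groups overlapped: treated library 2 was the highest of all 6 and treated library 3 the lowest. The mean was 5.18 ± 0.202 FPKM untreated and 5.19 ± 0.433 treated (SD, n = 3 each). The log2 change was 0.0030 (edgeR adjusted p = 0.98), and limma's 95% interval of the change ran from a ratio of 0.89 to 1.12. With 3 libraries a group, the size and direction of a change of Acvr1b within these bounds were not settled. The bounds are not a detection limit: Trappc10 passed the same edgeR test at a log2 change of -0.15 (edgeR adjusted p = 0.012). That call depended on the processing, as it was lost in 5 of 16 alternatives, among them TMM scaling (-0.017).

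**Figure D1:**
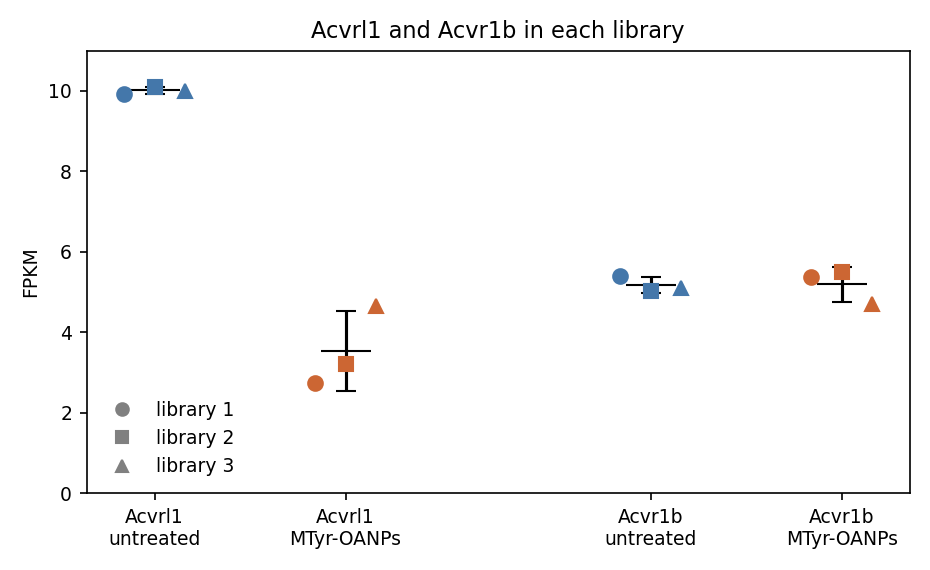
FPKM of Acvrl1 and Acvr1b in each library, with marker shape giving the library number, colour the group, and black lines the mean ± SD (n = 3). The untreated Acvrl1 values sit between 9.93 and 10.1 and the treated ones between 2.74 and 4.64, whereas the Acvr1b groups overlap.

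Most tested genes changed, so a call by itself was common. Of the 53 tested genes, 44 passed (83%), 24 of them lower (45.3%) and 20 higher (37.7%) after treatment, and 45 had groups that did not overlap (84.9%). A fall of at least 2-fold, as in Acvrl1, was found in 11 genes (20.8%). Ordered by log2 change, Acvrl1 had the 5th largest fall of the 53, and Acvr1b had the smallest change in either direction. The median change over the tested genes was -0.03 on the log2 scale, and the median size of a change was 0.50. TMM scaling raised log2 changes by a median of 0.14, which put Acvrl1 at -1.36 and Acvr1b at 0.14 (edgeR adjusted p = 0.18) and made Acvr1b the 8th smallest change.

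**Figure D2:**
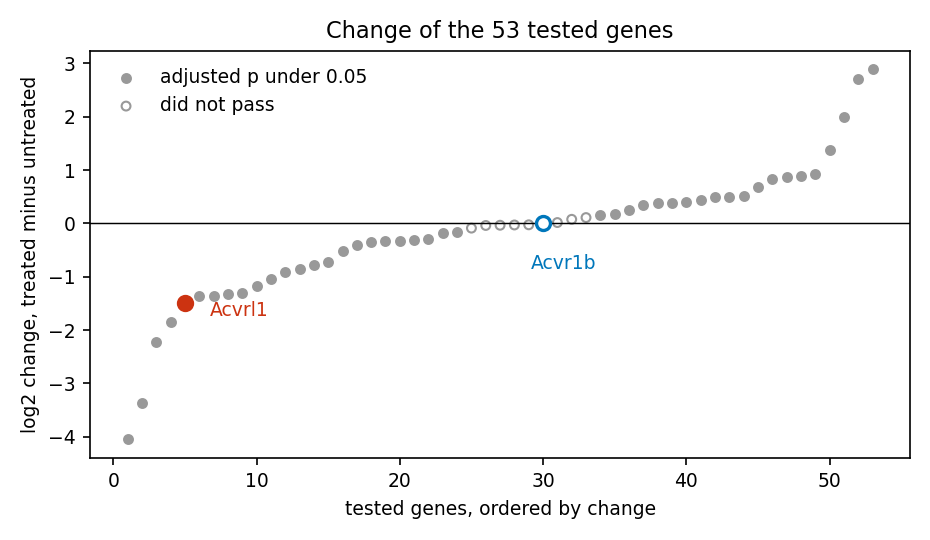
Log2 change (treated minus untreated, edgeR) of the 53 tested genes in order, with filled points for genes at an adjusted p under 0.05 and open points for the others. Acvrl1 is 5th from the low end at -1.50, and Acvr1b, an open point, lies at 0.

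The change in the balance between the receptors was measured as the ratio of their FPKM within each library, which does not depend on how libraries are scaled to each other. In untreated libraries 1, 2 and 3 the ratio of Acvrl1 to Acvr1b was 1.83, 2.01 and 1.96. In treated libraries 1, 2 and 3 it was 0.509, 0.584 and 0.988. Acvrl1 was therefore the more abundant transcript per length in every untreated library and the less abundant one in treated libraries 1 and 2. At the merged exon length of Acvrl1, the receptors could not be ordered in treated library 3. There the exact binomial 95% interval of the ratio was 0.924 to 1.06, for counting error only. A shorter length for Acvrl1 would raise this ratio, so the order in this library also depends on the length used. Low counts in this table are mostly multiples of 4, and with 4 counts taken as 1 event the interval widened to 0.863 to 1.13.

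The mean ratio went from 1.93 ± 0.0896 to 0.694 ± 0.258 (SD, n = 3 each). On the log2 scale the difference was -1.54 (SE 0.29), a 2.91-fold lower ratio after treatment. The groups did not overlap, and the two-sided exact permutation test gave p = 0.1, the smallest that 3 against 3 libraries can give. A limma fit of every tested gene relative to Acvr1b, chosen after the data were seen, put the relative fall of Acvrl1 at a 95% interval of -1.90 to -1.18 on the log2 scale (limma adjusted p = 1.1e-07 over 52 genes). This fit also draws on the spread of the other genes, which the permutation test does not, and every gene in it carries the same Acvr1b values. Its interval is narrower than limma's for Acvrl1 alone (-1.96 to -1.12), although the SE of the ratio (0.29) is larger than that of Acvrl1 (0.23). The interval and adjusted p of this fit therefore do not measure the spread of the ratio itself between libraries. The same comparison could not be made for other members of the family. Of 103 genes listed as its receptors, ligands, antagonists, SMADs and targets, the table held Acvrl1 and Acvr1b, and the other 101 were not analysed here.

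**Figure D3:**
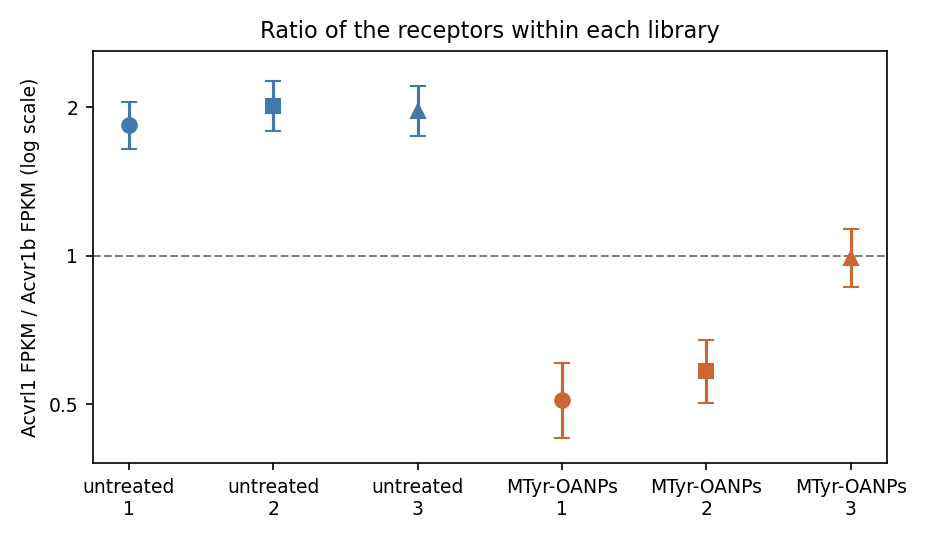
Ratio of Acvrl1 FPKM to Acvr1b FPKM in each library on a log scale, with exact binomial 95% intervals that take 4 counts as 1 event (counting error only) and a dashed line at equal levels. The 3 untreated ratios lie between 1.83 and 2.01, treated libraries 1 and 2 lie at 0.509 and 0.584, and treated library 3 lies at 0.988.

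The treated libraries differed among themselves in Acvrl1 more than in any of the other 52 tested genes. The coefficient of variation (CV, SD over mean) of Acvrl1 was 0.846% over the untreated libraries, the lowest of the 53 genes. Over the treated libraries it was 28.1%, the highest of the 53. The median CV over the tested genes was 4.56% untreated and 4.26% treated. Counting error alone would give a CV of 2.87% at the treated mean count, or 5.74% with 4 counts as 1 event, both below the measured spread. The untreated value lies below the 1.71% that counting alone would give at that depth, or 3.42% with 4 counts as 1 event. With 3 libraries a group, these CVs are descriptions and their difference was not tested.

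Treated library 3 deviated from the other treated libraries in both receptors, in opposite directions. Its Acvrl1 FPKM was 1.56-fold the mean of treated libraries 1 and 2, the highest such ratio of the 53 genes. Its Acvr1b FPKM was 0.863 of that mean, the lowest such ratio of the 53 but only the 7th largest deviation in size. The median of this ratio over all tested genes was 0.997. Without treated library 3, the Acvrl1 CV was 11.1% and its fall 3.36-fold. Treated library 3 by itself was 2.16-fold below the untreated mean. The ratio of the receptors without it was 0.546 ± 0.0526 (SD, n = 2).

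**Figure D4:**
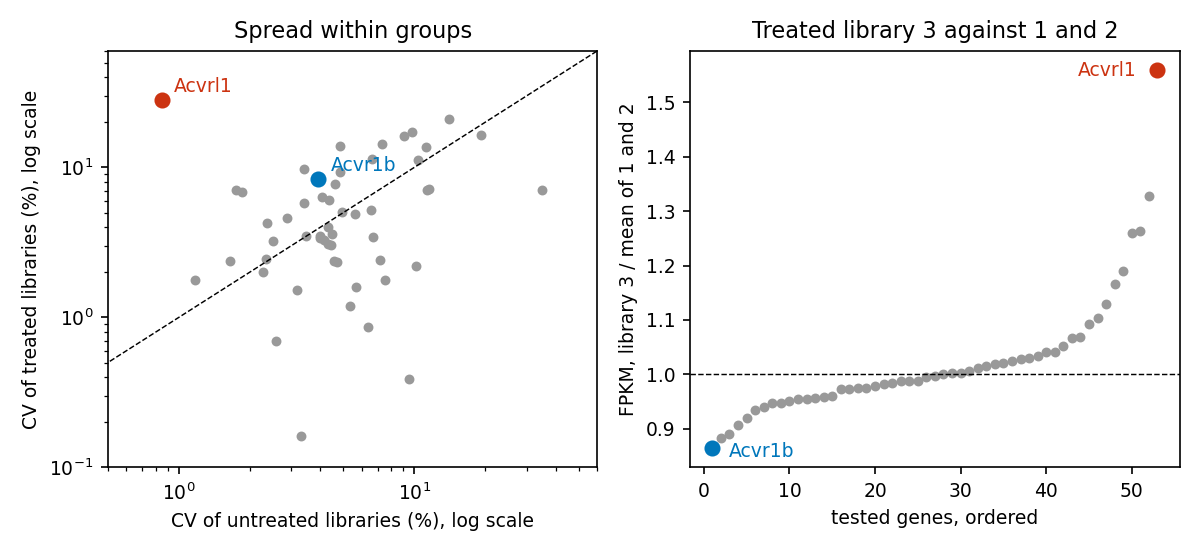
Left, CV of FPKM over the untreated libraries against that over the treated libraries for the 53 tested genes (log scales, n = 3 each, dashed line at equality). Right, FPKM in treated library 3 over the mean of treated libraries 1 and 2 for the same genes in order; Acvrl1 is highest at 1.56 and Acvr1b lowest at 0.863.

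Among the other tested genes, the patterns most like that of Acvrl1 over the 6 libraries were those of Narf, Slc22a18 and Hddc2. Their Pearson correlations of log2 FPKM with Acvrl1 were 0.99, 0.98 and 0.97, which describe 6 libraries in 2 groups and mostly restate a fall in all 3 treated libraries. Narf, named for its binding to prelamin A, went from 6.63 ± 0.321 to 2.64 ± 0.366 FPKM (SD, n = 3 each). Its highest treated library was also library 3, at 3.05 against 2.38 and 2.47 FPKM in libraries 1 and 2. Slc22a18 was likewise highest in treated library 3, at 5.35 against 4.09 and 5.09 FPKM in libraries 1 and 2. Treated library 3 was among the 6 libraries used to pick these genes, so a shared high value there partly restates the choice. Hddc2 was highest in treated library 2, at 5.09 FPKM, against 4.20 in library 1 and 4.84 in library 3. Acvr1b had no close match: Tbx4, a T-box transcription factor, came first at 0.60, then Trappc10 and Xpo6 at 0.30 each. The correlation between Acvrl1 and Acvr1b was -0.24.

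The next gene of the table along the chromosome, Grasp, starts 10503 bases beyond Acvr1b. It encodes a scaffold protein and was singled out for its position after its values were seen. Its FPKM was 8.31, 8.38 and 8.98 in untreated libraries 1, 2 and 3 and 9.89, 10.1 and 10.7 in treated libraries 1, 2 and 3. The log2 change was 0.25 (edgeR adjusted p = 0.024), with adjusted p of 0.067, 0.077 and 0.066 without untreated library 1, treated library 2 and treated library 3. Along this stretch, the receptor genes and their neighbour thus had log2 changes of -1.50, 0.0030 and 0.25.

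Because Acvrl1 is best known in endothelium, markers of other cell types were looked for. None of the 12 listed endothelial markers was among the genes of the table, so endothelial RNA was not analysed here. Of 9 leukocyte markers, Itgb2 and Lck were in the table. Their summed level was 0.490 to 0.833 FPKM in untreated and 2.65 to 3.23 FPKM in treated libraries. Lck had a mean below 1 FPKM and was not tested. Itgb2 (mean 0.404 FPKM untreated and 1.62 treated) met that minimum only through the treated libraries. Of 6 fibroblast markers, Fap was in the table, with a count of 15 in untreated library 3 and 0 in the other libraries. Of 8 melanocyte and melanoma markers, Ngfr was in the table, so the labelled cell type could not be checked on pigment genes. The part of other cell types in the change of Acvrl1 was not tested. Ngfr, a neurotrophin receptor, Acvrl1 and Acvr1b were the 3 genes that the table assigns to the KEGG pathway of cytokine receptor interaction. Ngfr went from 1.37 ± 0.0895 to 10.2 ± 0.529 FPKM (SD, n = 3 each), so these 3 receptors rose, fell and did not pass the test, respectively.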

How the data were processed

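Per the file headers, the table the authors deposited gives whole-number counts and FPKM values for each gene in each library. CASAVA 1.4 and mm9 are listed, per the submitters' processing notes; the sources used here name no aligner, counter or strand setting. Gene ends matched GENCODE M21 on GRCm38 (86 of 99 genes at both ends, 13 at 1), so coordinates are on GRCm38. Columns named TyrOA were taken as MTyr-OANPs. Counts of 0 are listed at 0.0001 FPKM.

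Counts over FPKM gave relative library depths from 59 genes with counts of at least 50. With these depths as library sizes, the deposited counts were tested with edgeR 4.0.16 (quasi-likelihood, two-sided, Benjamini-Hochberg, threshold 0.05) on genes with a mean of at least 1 FPKM. The steps were checked on simulated data in which every gene had the same CV of 6.6% beyond counting error. That check does not cover a gene as variable as Acvrl1 over the treated libraries (CV 28.1%). Intervals came from limma 3.58.1 on log2 FPKM. Of 41 counts from 1 to 20, 30 were multiples of 4. Alternatives used DESeq2 1.42.0, limma, other scalings, minimums and left-out libraries. Named genes were the receptors, listed family genes, and the 3 tested genes best correlated with each; listed cell type markers found in the table were also given, and Grasp was added for its position after its values were seen. Members and lists were chosen with earlier results of these data known. Same-numbered libraries correlated at 0.31, 0.40 and -0.01 in their deviations from group means, and unlike-numbered ones at -0.40 to 0.13. These values do not settle whether the numbers mark pairs. The main tests did not take them as pairs, and a replicate block was run as an alternative. GO terms were not used here.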

Additional observations from a re-analysis of the deposited data

How the results depend on the processing

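The fall of Acvrl1 passed the threshold in all 16 alternatives, with log2 changes from -1.75 (without treated library 3) to -1.30 (limma on log2(FPKM + 1), which shrinks low genes) and adjusted p of at most 7.8e-04. Acvr1b passed in none of its 16, with adjusted p of 0.18 to 1.00; its log2 change ran from -0.041 to 0.071 when 1 library was left out, below 0 in 4 of these 6 fits, and reached 0.14 under TMM. Acvrl1 had the 5th or 6th largest fall in each alternative on the same 53 genes, and Acvr1b the smallest to 8th smallest change. With other FPKM minimums the fall of Acvrl1 ranked 3 of 42 genes (minimum 5) and 14 of 83 genes (no minimum). The log2 difference in the ratio of Acvrl1 to Acvr1b was -1.83 to -1.35 with 1 library left out (exact permutation p = 0.2, the smallest 2 against 3 can give), -1.30 with a pseudocount of 1, and -1.54 relative to Acvr1b in limma, a fit that draws on the spread of all genes and in which it passed. With the replicate block, edgeR gave -1.53 for Acvrl1 (adjusted p = 2.3e-06), 0.0011 for Acvr1b and 45 calls against 44, and the ratio gave -1.54 (p = 0.25, the smallest 3 pairs can give in an exact sign-flip permutation test). Between 35 and 51 genes passed over the alternatives, the ends having 42 and 83 genes tested, and 40 to 44 passed with 1 library left out. The sign of Tbx4 (-0.03) turned to 0.10 under TMM, 0.10 with aligned medians and 0.030 in DESeq2, and that of Xpo6 (0.02) ran from -0.073 to 0.082 with 1 library left out; Xpo6 gained a call with aligned medians (0.15, adjusted p = 0.029). Trappc10 (-0.15) lost its call in 5 alternatives: under TMM (-0.017), with aligned medians (-0.021), in DESeq2 (-0.089), without untreated library 2 (adjusted p = 0.052) and without treated library 3 (adjusted p = 0.070). Counts divided by 4, merged exon lengths and the limma fit relative to Acvr1b were chosen after seeing the data. At the treated mean count of Acvr1b, counting error alone gives a CV of 2.35%, or 4.70% with 4 counts as 1 event, against 8.34% measured.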
